A study of Homo sapiens with 8 samples.

Results

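HEC59 is a human cell line from an endometrial carcinoma, and its transcriptome was set against those of 7 other cancer cell lines of the same series. It was 1 of 8 samples, and each line had 1 library of total RNA. The series was designed around ibrutinib, a covalent inhibitor of Bruton's tyrosine kinase, in lines that express the neuregulin receptor ERBB4, of which 4 were described as responsive and 4 as non-responsive. The labels do not say on which side a line falls, so response was not compared. The other lines were H522 (lung, non-small cell), H661 (lung, large cell), H146 (lung, small cell), KLE (endometrial adenocarcinoma), H716 (cecum, colorectal adenocarcinoma), 1321N1 (glial, astrocytoma) and COV318 (ovarian, epithelial-serous carcinoma). No line had received a treatment according to the labels, and all had been in culture plates for 48 hours. HEC59 had been used at passages 5 to 10, and the labels do not say whether cultures were pooled.

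The endometrial lining arises from the Müllerian duct, whose epithelium is marked by the transcription factors PAX8 and SOX17 and takes its position along the tract from HOX genes. Carcinomas of this lining often lack DNA mismatch repair, the pathway that recognises bases mispaired during replication and replaces the stretch around them.

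Each gene was placed by its margin, the difference on the scale log2(FPKM + 1) between HEC59 and the highest or the lowest of the other 7 lines. FPKM is a count of fragments divided by the length of the transcript and the total mapped in the library. A gene was counted as above or below the other lines at a margin of 1 or more, which is a ratio of 2 between values of FPKM + 1. With 1 library per line there is no replicate spread, so no test, error or interval is given and every margin describes these 8 libraries. A line stands for a single tumour, and in bulk RNA fewer cells of a type and less RNA per cell cannot be told apart. Of 58202 genes listed, 19186 reached an FPKM of 1 in some line, and 14033 of these were protein-coding. A gene that reached 1 in HEC59 alone passed this filter only through HEC59, so it was highest there by selection.

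The deposited values of HEC59 summed to an FPKM of 397053, against 376880 to 511451 in the other lines, and 12749 genes reached an FPKM of 1, against 12205 to 13300. Mitochondrial genes held 16.1% of the HEC59 sum, the highest share, against 4.37% to 13.1%. The absolute depth is unknown because FPKM holds no read totals. Of genes above 0 and under 0.1 in both lines, 17.9% to 23.5% lay within 0.03 (log2) of the commonest ratio between HEC59 and H146, COV318 or 1321N1. The share was 7.61% to 13.3% for the other 4 lines, and what made it differ was not tested. Over protein-coding genes the rank correlation with HEC59 was highest for COV318, at 0.818, followed by KLE at 0.797 and H522 at 0.793, and lowest for H146 at 0.708. These correlations run over 14033 genes of the same libraries and describe the libraries only.

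HEC59 was above all 7 other lines for 257 protein-coding genes (1.83%) and below all of them for 149 (1.06%). The same counts for the other lines ran from 199 in COV318 to 524 in H146 for genes above, and from 29 in COV318 to 383 in H146 for genes below, so HEC59 had the second-highest number of genes below. Genes above made up 63.3% of these 406 calls, and 80.7%, 82.3% and 75.6% when values were first scaled to a common upper quartile, to equal sums without mitochondrial genes, or by quantile normalization. The median gene of HEC59 lay -0.09 from the median of the other lines as deposited and 0.08 with equal sums without mitochondrial genes. Leaving out a line can only raise the counts above and below, and the count below rose most without H146, to 255. Protein-coding genes reached an FPKM of 1 in HEC59 alone in 132 cases (0.941%) and in every line except HEC59 in 89 cases (0.634%). At any margin, HEC59 was the highest line for 1307 protein-coding genes (9.31%) and the lowest for 2070 (14.8%), and a margin of 2 was reached by 82 and 24.

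**Figure D1:**
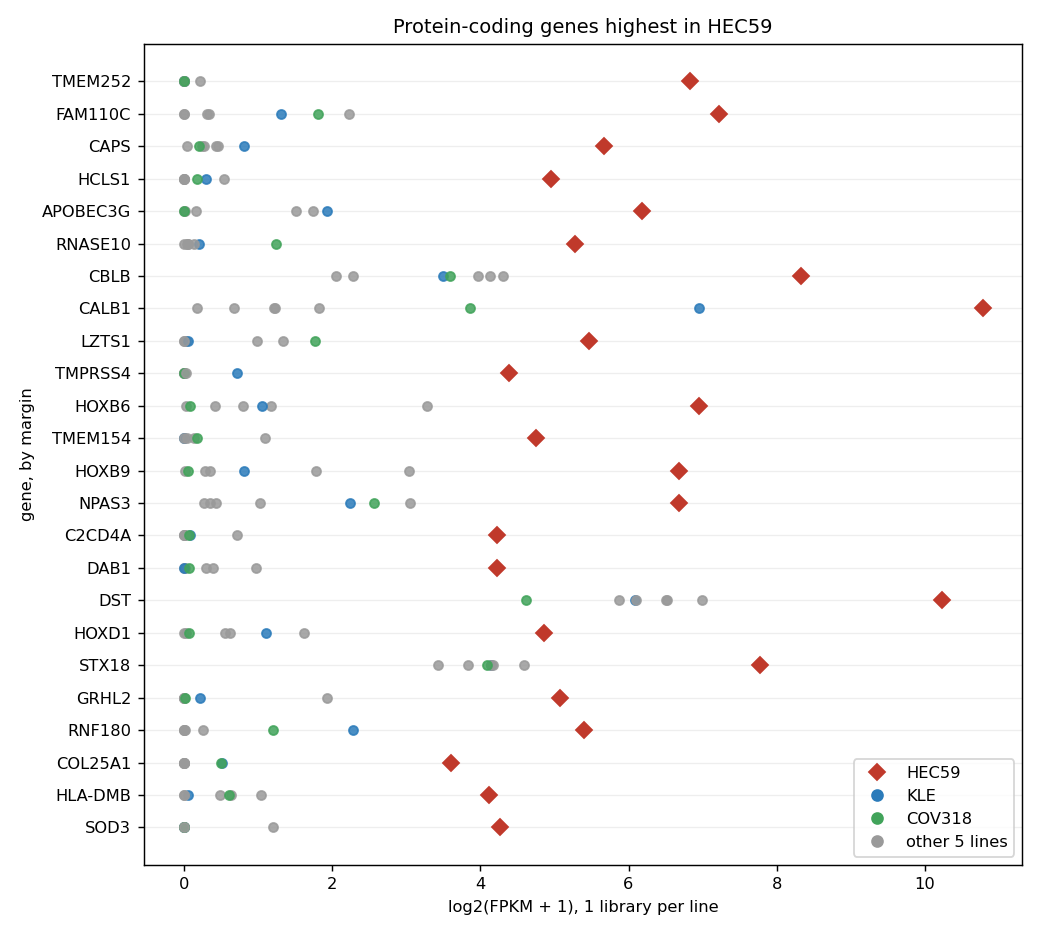
Level on log2(FPKM + 1) of protein-coding genes with the largest margins above the other lines, with HEC59 as a red diamond, KLE in blue, COV318 in green and the other 5 lines in grey, 1 library per line. TMEM252 stands furthest from its nearest line, at a margin of 6.61, and CALB1 is at the highest level.

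The 25 genes with the largest margins above included the transcription factors GRHL2, NPAS3, HOXB6, HOXB9 and HOXD1. GRHL2, which maintains epithelial junction genes, reached 32.6, against a median of 0 and a highest value of 2.81 in H146. NPAS3, a factor of the bHLH-PAS family, was at 101, against a median of 1.04 and a highest value of 7.28 in H661. GRHL2 did not reach an FPKM of 1 in KLE, the other endometrial line. SALL1, a zinc finger factor of kidney development, was named after its value was seen; it lay at 39.6, against 0 to 4.52.

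The calcium-binding protein calbindin, encoded by CALB1, was the most abundant of the 25 genes in HEC59. Its FPKM was 1752, against 0.127 to 122 with a median of 1.35 in the other lines, and KLE was the nearest line at a margin of 3.83. CAPS, which encodes the calcium-binding protein calcyphosine, had an FPKM of 49.7, and no other line exceeded 0.757. The remaining 11 genes of the list for calcium binding and transport held no other gene above the other lines. The sodium-calcium exchanger SLC8A1 was highest in HEC59 at 35.8 but H146 was at 29.6, the epithelial calcium channels TRPV5 and TRPV6 and the calbindin-D9k gene S100G were listed at 0, and the vitamin D receptor VDR was at 0.888.

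CBLB, DST and STX18 were expressed in every line and by far the most in HEC59. CBLB, a ubiquitin ligase that removes active receptors and kinases, had an FPKM of 321 in HEC59 and 3.14 to 18.8, median 11.1, in the others. The related ligase CBL was lowest in HEC59, at 11.5, although by only -0.01 on the log2 scale, and CBLC was at 1.10. DST, which encodes the linker protein dystonin, reached 1199.9, against 23.6 to 126. STX18, a SNARE protein of the endoplasmic reticulum, was at 219, against 9.76 to 23. The margins of CBLB, DST and STX18 over the highest of the other lines were 4.02, 3.24 and 3.19.

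HCLS1, an actin regulator known from blood cells, had an FPKM of 30.0 in HEC59 and at most 0.462 elsewhere. TMEM252, a transmembrane protein, was at 112, against 0.159 in H146 and 0 in the other 6 lines. FAM110C was at 148, against 0 to 3.68. The extracellular superoxide dismutase SOD3 had an FPKM of 18.2 and was at 0 in all other lines except 1321N1, which was at 1.31. The membrane serine protease TMPRSS4 was at 19.9, against a highest value of 0.642. The Reelin adaptor DAB1 was at 17.8, and no other line reached 1. RNASE10, LZTS1, TMEM154, C2CD4A, RNF180 and COL25A1 had an FPKM of 11.2 to 43.3 in HEC59 and of at most 3.85 in another line.

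The antiviral deaminase APOBEC3G had an FPKM of 71.9 in HEC59, with a median of 0.123 and a highest value of 2.83 in KLE. Of the 7 APOBEC3 genes, a family chosen after these values were seen, 5 passed the filter. APOBEC3F was also above the other lines, at 26.5 against 0 to 6.57, while APOBEC3C and APOBEC3D were highest by 0.10 and 0.34. APOBEC3B, at 4.84, lay within the range, below 1321N1 at 42.4. So 4 of these 5 genes were highest in HEC59, against 9.31% of all protein-coding genes, and APOBEC3B alone was not.

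LGR5 and LGR4, receptors for the R-spondins that amplify WNT signals, were above the other lines together. LGR5 had an FPKM of 130.0, against 0.0219 to 16.0, and LGR4 of 109.9, against 0.102 to 32.1. The third receptor, LGR6, was listed at 0 in HEC59. Of the 15 genes listed for WNT and β-catenin response, 12 passed the filter and LGR5 was the only one above. AXIN2, a feedback target of β-catenin, was at 0.419, and RNF43, the ligase that removes WNT receptors, was at 0.0354, both within the range of the other lines. The list had a median difference of -0.05 from the median of the other lines, against -0.09 for all protein-coding genes.

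The 4 genes used to mark HEC59 were all highest in it, which had been known when they were chosen. PAX8 had an FPKM of 185, against 72.6 in COV318, 45.7 in KLE and at most 5.84 elsewhere, a margin of 1.33. SOX17 was at 56.1, against 26.7 in COV318, 10.3 in KLE and at most 0.0620 elsewhere. Its margin of 1.04 became 0.946 with a pseudocount of 5. ERBB3, a receptor that signals in pairs with other ERBB members, was at 10.7, against 5.55 in H716, and its margin of 0.83 did not reach 1. ERBB3 did pass with upper-quartile scaling (1.22), with equal sums without mitochondrial genes (1.24) and without H716 (1.35). ERBB4 was at 85.3, second to H522, ERBB2 was at 15 and EGFR at 11, all within the range as deposited. Of the 4 ERBB receptors, only ERBB3 was highest in HEC59 as deposited, against 9.31% of all protein-coding genes. Under each of the 3 scalings 2 of the 4 were highest, so the ranks within this family depended on scaling.

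Among the 25 genes listed for the Müllerian tract and endometrial lineage, 22 passed the filter, 10 were above all other lines and none was below. Over all protein-coding genes, 1.83% were above and 1.06% below. The median difference of the 22 from the median of the other lines was 2.35, against -0.09 over all protein-coding genes, and 20 were higher than that median. MSX2 and FOXJ1 passed the filter only through HEC59, with highest values of 0.350 and 0.615 elsewhere, so their direction was fixed by it. Besides PAX8 and SOX17, the genes above were WNT7A, a ligand that patterns the female tract (FPKM 21.2 against 0 to 2.05), the homeobox factors MSX1 and MSX2 (7.35 and 7.26), GATA2 (14.4), the folate receptor FOLR1 (16.1 against 0 to 2.61), the ciliated-cell factor FOXJ1 (3.42), HOXD10 and HOXD11. EMX2, at 8.72, lay below KLE at 34.8 and COV318 at 14.7, and WFDC2, which encodes the serum marker HE4, was at 12.8 against 1102 in KLE. WT1 was at 0.408, against 28.7 in KLE. Of the other markers of the tract, MSLN was at 0.197, against 13.6 in KLE, LHX1 at 0.111, against 11.5 in COV318, and MUC16 at 2.97, against 8.18 in KLE. The markers of the labelled origin were thus mixed in HEC59, with some above the other lines and others far below KLE or COV318.

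Receptors for the ovarian steroids were at low levels. ESR1, the estrogen receptor α gene, was listed at 0 and PGR, the progesterone receptor gene, was at 0.787. ESR2 was the highest of the 8 lines but only at 1.14. No line reached an FPKM of 1 for ESR1 or PGR. For PGR, HEC59 was the highest line, with COV318 at 0.0308 and the other 6 listed at 0. None of the 12 hormone receptor and response genes past the filter was above or below the other lines by 1 or more.

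Of 26 epithelial genes, 22 passed the filter, and every one of these was higher in HEC59 than the median of the other lines. The median difference was 2.23, against -0.09 over all protein-coding genes. Above all other lines were 5 genes, against 1.83% of all protein-coding genes. The genes above all other lines were GRHL2, the claudin CLDN4 (18.7 against 0 to 7.27), the splicing factor ESRP2 (10.5 against 0.0402 to 4.10), the prostasin gene PRSS8 (6.21) and the junction protein TJP3 (5.59). With a pseudocount of 5 the margins of CLDN4, ESRP2, PRSS8 and TJP3 were 0.683 to 0.952, and those of MSX1, FOXJ1, HOXD9, HOXD11, IRF7, HLA-DMA and CDH5, named in other lists, were 0.480 to 0.915, all short of 1. The adhesion gene EPCAM was highest at 299.7, against 253 in H146, and CDH1, the E-cadherin gene, was at 33.1, below KLE at 102. Keratin 8, 18 and 19 genes had an FPKM of 45.2, 61.1 and 91.6 and were all higher in KLE. Of 20 mesenchymal genes, 19 passed, and the median difference was -1.07 as deposited and -0.83 to -0.62 under the 3 scalings. As deposited, 3 were higher than the median of the other lines. The N-cadherin gene CDH2, at 66.1, was among those higher, and VIM, the vimentin gene, was at 167, above only H146. COL3A1 was listed at 0, against 1.02 to 205, and its margin below of -1.01 became -0.968 and -0.943 with upper-quartile scaling and with equal sums without mitochondrial genes.

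**Figure D2:**
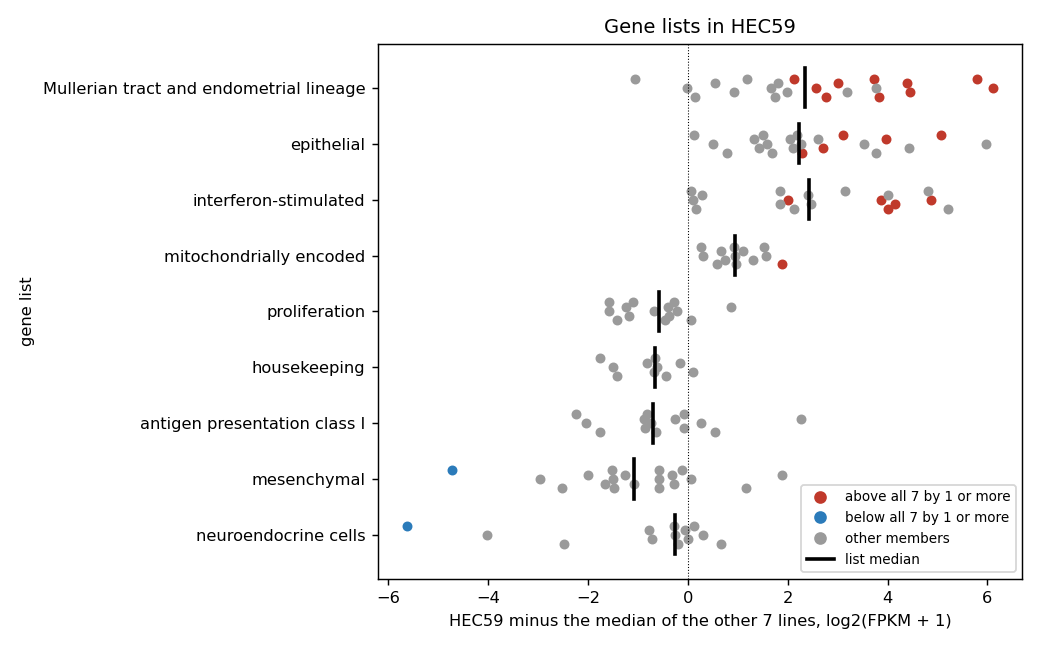
Difference on log2(FPKM + 1) between HEC59 and the median of the other 7 lines for each gene past the filter in 9 gene lists, with red for genes above all other lines by 1 or more, blue for genes below by 1 or more, grey for the rest and a black bar at the list median. The Müllerian, epithelial and interferon-stimulated lists lie to the right, with medians of 2.35, 2.23 and 2.44. The mesenchymal list lies to the left, with a median of -1.07. All values are as deposited.

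HOX genes lie in 4 clusters, and their combination records the position of a cell along the body axis. The cluster lists were added after values had been seen. Over all protein-coding genes, 1.83% were above the other lines. Of 10 HOXB genes, 7 passed the filter and 5 were above the other lines. HOXB6 had an FPKM of 122, against 0.0164 to 8.72, HOXB9 of 101, against 0.0146 to 7.23, HOXB3 of 36.0, HOXB2 of 25.7 and HOXB5 of 13.4. HOXB13, the most posterior member, was at 0.301 and within the range, and HOXB8 was highest by 0.93. Of 9 HOXD genes, 8 passed and 6 were above, among them HOXD1 (27.9 against 0 to 2.08), HOXD10 (20.0 against 0 to 4.62), HOXD8 (13.9), HOXD3 (13.2), HOXD11 (12.7) and HOXD9 (4.97). HOXD9 passed the filter only through HEC59, so its direction was fixed by the filter. HOXD13 was at 0.160, against 5.78 in H146.

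The other 2 clusters differed from this. None of the 9 HOXC genes reached an FPKM of 1 in HEC59, and 6 were listed at 0. The HOXC genes summed to an FPKM of 0.147 in HEC59, against 0.202 to 89.9 in the other lines, the highest being H522. Of the 11 HOXA genes, HOXA6 was highest, at 17.2 against 15.6 in H716, and the other 10 lay within the range. The uterine gene HOXA10 was at 18.9, with H716 at 48.5, and HOXA11 was at 2.97, with H716 at 7.32. HOXB transcripts overlap an antisense RNA, and HOXB7 held estimates far under the value of 1 read in several lines, so single HOXB values are uncertain.

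**Figure D3:**
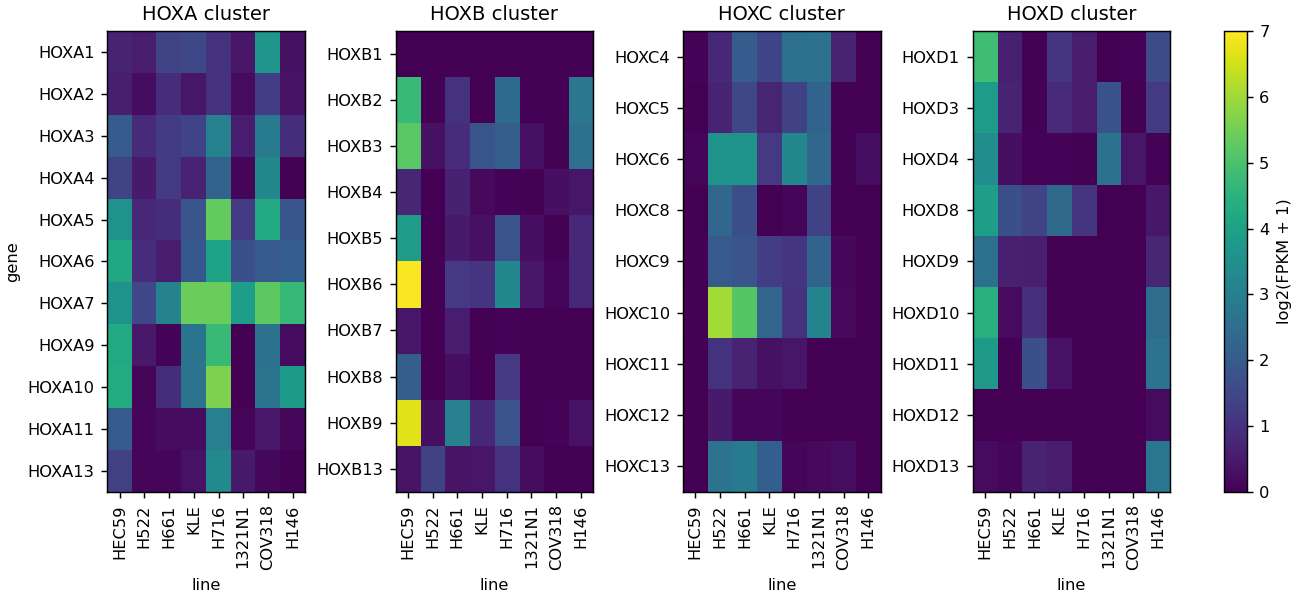
Heat map of log2(FPKM + 1) for the genes of the 4 HOX clusters (rows) in the 8 lines (columns), 1 library per line, with lighter colours for higher levels. HEC59 is the lightest column for HOXB2 to HOXB9 in most rows and for HOXD1 to HOXD11, and dark throughout the HOXC cluster.

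Type I interferons act through a complex that contains IRF9 and binds a response element in the promoters of antiviral genes. All 18 interferon-stimulated genes listed passed the filter and were higher in HEC59 than the median of the other lines. The median difference was 2.44, against -0.09 over all protein-coding genes. Of the 18, 5 were above all other lines, against 1.83% of all protein-coding genes. IFIT1, IFIT2 and IFIT3, which encode antiviral proteins, had an FPKM of 62.1, 17.0 and 29.6, against highest values of 16.2, 2.97 and 8.99, all in COV318. The oligoadenylate synthetase OAS2 was at 14.9, against 0 to 1.10, and the regulator IRF7 was at 3.54, against 0 to 0.988. IRF7 passed the filter only through HEC59, so its direction was fixed by the filter. COV318, the ovarian line, was higher than HEC59 for ISG15 (139 against 71.8), IFI6 (480.4 against 101) and IFI27 (527 against 0.527). IRF1, at 1.71, lay within the range of the other lines. The 2 lines therefore shared a high level of the list while differing in which members were highest.

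The promoters of 4 of these genes are shown because the members were high together and the element bound by the interferon complex is known. Each is the 160 bases before the RefSeq start on GRCh38.p14, written 5′ to 3′ along the gene, with capitals for matches to the element, taken as GAAA, any 2 bases and GAAA again, on either strand and with overlaps allowed. IFIT1 and IFIT3 were above all other lines, and BST2 (36.5 against 0 to 25.2) and OAS3 (16.3 against 0.828 to 12.6) were highest by less than 1.
IFIT1, chr10:89392463-89392622, plus strand: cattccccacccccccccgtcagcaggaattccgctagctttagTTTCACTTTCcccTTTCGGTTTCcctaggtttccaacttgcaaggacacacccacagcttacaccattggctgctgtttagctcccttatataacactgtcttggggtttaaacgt
IFIT3, chr10:89327837-89327996, plus strand: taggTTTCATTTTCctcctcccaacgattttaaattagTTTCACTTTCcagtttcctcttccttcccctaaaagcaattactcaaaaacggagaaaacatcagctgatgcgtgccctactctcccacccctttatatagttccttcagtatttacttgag
BST2, chr19:17405631-17405790, minus strand: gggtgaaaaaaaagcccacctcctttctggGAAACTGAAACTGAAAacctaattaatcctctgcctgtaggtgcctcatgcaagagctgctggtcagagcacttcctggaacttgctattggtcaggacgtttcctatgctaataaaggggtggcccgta
OAS3, chr12:112938314-112938473, plus strand: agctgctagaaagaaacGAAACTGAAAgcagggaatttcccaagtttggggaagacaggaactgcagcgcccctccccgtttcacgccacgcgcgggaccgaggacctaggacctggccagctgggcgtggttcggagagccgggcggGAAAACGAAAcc

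Each of these 4 stretches held 2 matches. In IFIT1 the matches began 116 and 103 bases before the start, and in BST2 the 2 matches overlapped. Over all 35116 promoters of the table, 3.02% held a match in the 250 bases before the start. An entry was present for 13 of the 18 listed genes, or 72.2%, which is too few for a share over the list. Of these 13, 10 held a match at 1 or more listed starts, and IRF1, IRF9 and OAS1 held none. A match describes these letters of the reference and not binding in HEC59, and the files hold no measure of binding.

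None of the 14 class I genes past the filter was above or below the other lines by any margin. Their median difference was -0.69 as deposited and -0.58 to -0.39 under the 3 scalings. Over all protein-coding genes that median was -0.09 as deposited and 0 to 0.08 under the scalings. B2M, the light chain of class I molecules, was at 40.2, against 29.6 to 578, and the immunoproteasome gene PSMB8 was at 0.229, against 28.8 in COV318. Of 11 class II genes, 6 passed the filter with a median difference of 0.04 as deposited. HLA-DMB (16.4 against 0 to 1.05) and HLA-DMA (15.2 against 0.261 to 5.70) were above. Over all protein-coding genes 1.83% were above. HLA-DRA was listed at 0, CIITA, the class II master regulator, was at 0.0599, and CD74 at 0.197; of the class II list, no gene other than the 2 peptide-exchange genes reached an FPKM of 1.

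The gene furthest below the other lines was PLP2, which encodes a small multi-pass membrane protein. Its FPKM was 0.262 in HEC59 and 144 to 488, with a median of 217, in the other lines, a margin of -6.84. UCHL1, a deubiquitinating enzyme abundant in neurons and in many tumour lines, was at 6.77, against 224 to 1117. NRSN2 was at 0.0577, against 23.3 to 47.4. For each of these genes every other line was high, and HEC59 alone was low. Of the 149 genes below, 44 were under an FPKM of 1 in HEC59 and 4 were listed at 0, among them FGF12, an intracellular modulator of sodium channels, at 8.63 to 56.2 in the other lines, and ARMCX5, at 2.96 to 17.9.

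**Figure D4:**
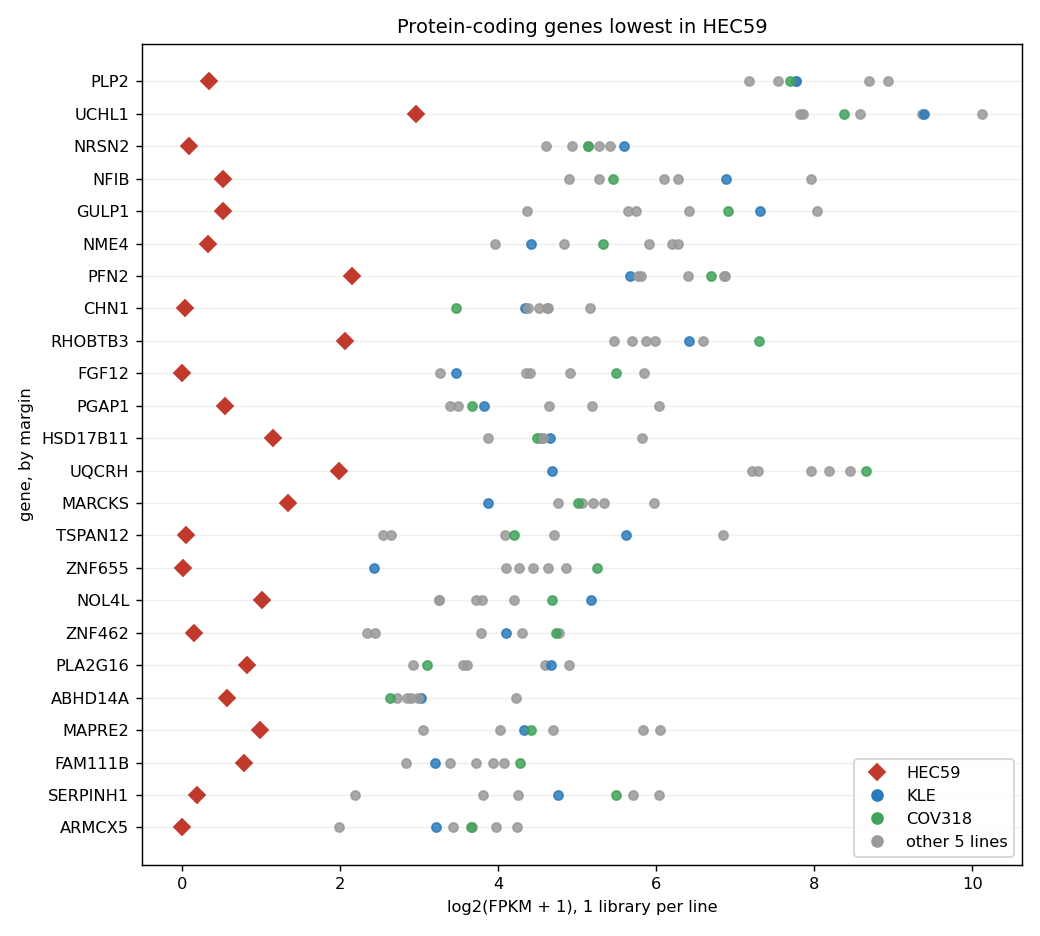
Level on log2(FPKM + 1) of protein-coding genes with the largest margins below the other lines, with HEC59 as a red diamond, KLE in blue, COV318 in green and the other 5 lines in grey, 1 library per line. HEC59 lies alone on the left in every row, from PLP2 at a margin of -6.84 to ARMCX5 at -1.99.

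NFIB, a transcription factor of the nuclear factor I family, had an FPKM of 0.433, against 28.8 to 247 with a median of 67.3. A family comparison added after these values showed 3 of its 4 members far under the median of the other lines. NFIA was at 0.329, against a median of 46.7, and NFIX at 2.62, against 28.5. H146 was lower still for both, at 0.0197 and 0.00633, so that NFIB was the only one below all lines. NFIC, at 26.9, was within the range.

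Relatives of other genes below by wide margins varied in their levels. PFN2, a profilin that binds actin monomers, was at 3.45, against 49.6 to 116, while PFN1 was at 229 and within the range. NME4, a nucleoside diphosphate kinase of mitochondria, was at 0.258, against 14.6 to 76.6, while the cytosolic NME1 and NME2, at 82.9 and 73.5, were within the range. NME6, at 7.21, was lowest in HEC59 by -0.13, and NME7 was below all lines by -1.54. Among signalling proteins, the Rac regulator CHN1 was at 0.0290, against 10 to 34.7, the phagocytosis adaptor GULP1 at 0.426, against 19.6 to 260.1, and MARCKS, a protein kinase C substrate, at 1.52, against 13.6 to 61.9. SERPINH1, the chaperone of collagen folding, was at 0.134, against 3.56 to 64.5, and so was low beside COL3A1. TSPAN12, RHOBTB3, PGAP1, HSD17B11, ZNF655, NOL4L, ZNF462, PLA2G16, MAPRE2 and FAM111B were also among the 25, at an FPKM of 0.00887 to 3.18. UQCRH (2.97 against 24.7 to 401) and ABHD14A (0.476) have near-identical copies or overlapping genes and are uncertain. With a pseudocount of 5, the margins of TSPAN12, ZNF655, ZNF462, ABHD14A, FAM111B, SERPINH1 and ARMCX5 fell short of 1 and lay between -0.964 and -0.671.

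MSH6, which takes part in the recognition of mispaired bases, had an FPKM of 14.3 in HEC59, against 36.6 to 69.9 in the other lines. Its margin was -1.30 as deposited, -0.966 with upper-quartile scaling and -0.874 with equal sums without mitochondrial genes. With quantile normalization MSH6 stayed below the other lines by 1 or more. MSH3 was at 5.40 and within the range of 4.14 to 16.1, and PMS2, at 23.3, lay within the range of 7.59 to 36.7. The exonuclease EXO1, at 12.6, and the sliding clamp PCNA, at 21.8, were lowest by -0.65 and -0.62. All 12 mismatch repair and proofreading genes listed passed the filter, and 2 of them were highest in HEC59, each by less than 1. Over all protein-coding genes HEC59 was highest for 9.31% and lowest for 14.8%. The median difference of the 12 was -0.38 as deposited. It was -0.07, -0.09 and -0.23 with upper-quartile scaling, with equal sums without mitochondrial genes and with quantile normalization. Over all protein-coding genes the median difference was -0.09 as deposited and 0.04, 0.08 and 0 under these scalings.

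Neighbours were sought among protein-coding genes past the filter, so a gene that failed it was skipped and did not break a run. Runs of at least 3 neighbouring genes in this order, all above the other lines, occurred 5 times, and none occurred below. HOXB2, HOXB3, HOXB5 and HOXB6 formed one, HOXD8 to HOXD11 another and the 3 IFIT genes the third. HOXB4 did not pass the filter, so the HOXB run is not an unbroken block of expressed genes. Another run, MFHAS1, ERI1 and PPP1R3B, was at 37.2, 39.1 and 18.9, with highest values of 11.5, 10.6 and 5.31 elsewhere. COL4A1 and COL4A2, collagen genes of the basement membrane that share a promoter region, were both above as a pair, at 37.4 and 55.4, against highest values of 14.2 and 15.8.

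All 13 protein-coding mitochondrial genes were higher in HEC59 than the median of the other lines. Of them, 10 were the highest of the 8 lines, against 9.31% of all protein-coding genes. MT-ND6, a complex I subunit, was above by 1.35 (FPKM 907 against 171 to 355). MT-ND6 lies on the opposite strand from the other 12, and reads were not stated to be assigned by strand. With quantile normalization, 11 were higher than that median and 7 were highest. Cell division genes were on the low side, with 6 of 14 lowest in HEC59, none below by 1 and a median difference of -0.58. Over all protein-coding genes HEC59 was lowest for 14.8%, and the median difference was -0.09. Of the 14, 2 were higher than the median of the other lines, and MKI67, at 39.0, was the highest of the 8 lines. Housekeeping genes had a median difference of -0.66. Of the 10, ACTB (1555 against 1938 to 4753) and GAPDH (1039 against 1276 to 4493) were lowest, beside the same 14.8% over all protein-coding genes. Under the 3 scalings the housekeeping median was between -0.34 and -0.25, and that of the division genes between -0.35 and -0.25 with 3 or 4 of them lowest.

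Markers of other cell types were mostly low. None of 11 immune markers reached an FPKM of 1 in HEC59, and they summed to 0.856, against 0.833 to 14.5 in the other lines. CD3E, CD3D and MS4A1 were listed at 0 and PTPRC was at 0.0538. The 9 endothelial markers summed to 2.81, against 0.219 to 44.9, with PECAM1 at 0. CDH5, at 2.53, was above the other lines, of which the highest was KLE at 0.398. It passed the filter only through HEC59, so its direction was fixed by the filter. Fibroblast markers summed to 10.1, under the 13.1 to 779 of the other lines, squamous markers to 1.80 and neuroendocrine markers to 15.8, with SYP at 0.594, CHGA at 0.0780 and NEUROD1 at 0.

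KLE and COV318, the other lines from the female tract, were the nearest line for 58 and 56 of the 257 genes above, and H146 for 53. KLE and COV318 were both above the remaining 5 lines for 39 of the 257 genes (15.2%), against 992 of all 14033 protein-coding genes (7.07%). These numbers share the HEC59 values that chose the genes and are given as a description. At the threshold itself, TRIM24 was just inside, at 80.9 against a highest value of 39.6, and PLEKHG4B just outside, at 15 against 7. Below, ITGB1 was just inside, at 34.9 against a lowest value of 70.8, and MRPS18B just outside, at 11.5 against 23.9.

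Over genes of all types, 440 were above the other lines (2.29%) and 161 below (0.839%). The 5 non-coding genes with the largest margins above were RNU6-69 (FPKM 2052), RNA5SP259 and RNA5SP429 (510.3 each), AL133153.1 (339) and U4atac (235), all listed at 0 in every other line. Length scaling gives such short RNAs large values from few fragments, and they have near-identical copies, so these values are uncertain. The 5 below were RP11-508N12.4, KIAA0391, AC011330.6, RPS2P5 and RPS2P46, of which the RPS2 pseudogenes share sequence with a ribosomal protein gene.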

How the data were processed

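RNA sequencing of 8 human cell lines was analysed, 1 library per line. The authors deposited 1 table of FPKM values per line keyed by Ensembl identifier, as the file headers show. CASAVA 1.4, TopHat2 2.0.8, SAMtools 1.0 and GRCh37 were named in the submitters' processing notes. How FPKM was estimated, on which annotation and whether by strand were points not given in the sources used here. Tables were joined on identifier in Python 3.11.15 with pandas 2.3.3. Genes with FPKM of 1 or more in any line were kept, and AC002066.2 and AC055723.1, with values above 100000, were left out. Gene types came from GENCODE release 29 (82.2% of identifiers found) or, for 214 identifiers, from RefSeq by the Entrez identifier in the files. FPKM was used as log2(FPKM + 1), which understates differences of low genes. Named genes were the 25 protein-coding and 5 non-coding genes with the largest margin each way, members of gene lists and genes in runs; some of these genes are not reported here. Members, lists and markers were chosen with earlier results of these data known. No test was possible with 1 library per line. The margin script recovered the genes changed in simulated data without noise, which checks its arithmetic and not the calls in single libraries. Alternatives were other pseudocounts, filters, margins and detection levels, 3 scalings, each line left out, and the 3 lines with like steps alone.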

Additional observations from a re-analysis of the deposited data

How the results depend on the processing

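The counts of protein-coding genes above and below the other lines depended on the pseudocount, with 158 above and 52 below at a pseudocount of 5 and 288 below at 0.1. A margin of 2 left 82 and 24. Genes of all types gave 440 above. Equal sums without mitochondrial genes gave 396 above, 85 below and 59 missing in HEC59 alone, and upper-quartile scaling 91 below. Detection at an FPKM of 5 gave 181 missing in HEC59 alone. Against 1321N1, COV318 and H146 only, which have fewer lines to exceed, there were 503 above, 524 below, 312 in HEC59 alone and 293 missing. Leaving out each line in turn, which can only raise these counts, gave 281 to 314 above and 175 to 255 below. It gave 150 to 175 in HEC59 alone and 97 to 124 missing, and the highest count below was without H146. Of 95 named genes followed, 94 passed the margin and 72 did so in every setting. A pseudocount of 5 took 21 of them under it. Leaving out lines cannot lower a margin and the filters do not alter it. Only the pseudocounts and scalings could therefore take a gene under it. No margin that passed 1 changed sign in any of these settings. No paired analysis was possible because each line is a group of its own with 1 library. The absolute depth is unknown, so low values carry an error that cannot be given.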
